A study of Mus musculus with 8 samples.

Results

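Round spermatids from Larp7 knock-out mice were compared with round spermatids from wildtype mice through the splicing events of 5 deposited tables, 1 for each type of event. The tables held 52897 round spermatid events, all of which were members here, of 119019 events in the whole series. The other 66122 events belonged to the matching spermatocyte tables. Each event set the reads of 2 forms of a transcript, such as an exon included or skipped, against each other in 4 libraries.

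The labels gave 2 libraries of Larp7 knock-out and 2 of wildtype round spermatids, all from C57BL/6 mice and all prepared from polyadenylated RNA of cells that had been stained with Hoechst and collected by FACS from adult testes. The design text called the knock-out conditional, and the labels named neither the Cre driver nor the cells in which the gene had been deleted. The design text speaks of biological replicates, and the labels leave unsaid whether every library had a separate animal as its source, so p-values measure the spread between these libraries only.

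LARP7, a La-related protein, binds the end of the 7SK small nuclear RNA and keeps it stable. The 7SK particle holds the elongation kinase P-TEFb in an inactive state with the help of HEXIM1. LARP7 also binds U6, the spliceosomal RNA that pairs with the 5′ splice site, and guides 2′-O-methylation of U6 by small nucleolar RNAs. Round spermatids are haploid cells that have left meiosis and begin to build the acrosome and the flagellum.

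The table headers numbered the sample groups without naming a genotype, so the Larp7 gene was read first. A cassette exon of Larp7 on chromosome 3, from 127544154 to 127544278 (mm10), was included at 0.28% and 0.60% in the libraries of the first group. In the second group it was included at 100% in both libraries. The inclusion reads were 3 and 14 in the first group against 6406 and 6198 in the second, and the skipping reads were 584 and 1266 against 0 and 0. The first group is called exon-lacking below and the second exon-containing. Reading the exon-lacking group as the knock-out rests on this exon and not on a label, so the exon's values are a description.

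Larp7 had 18 events in the fit described below. This exon and 1 pair of mutually exclusive exons that contains it are among the called events, which follows from how the groups were named and is no finding. An 85-nt Larp7 intron on chromosome 3, from 127547005 to 127547089, was retained at 9.12% and 6.16% in the exon-lacking libraries and at 3.85% and 4.08% in the exon-containing libraries (limma, adjusted p = 0.197). The best covered Larp7 event stood at 274 and 341 without the exon and at 1164 and 1260 with it, in CPM (scaled so that the best covered events of all genes add up to the same total in each library). Larp7 reads thus differed by -1.99 ± 0.20 on the log2 scale (SE, limma, adjusted p = 0.000414), with no overlap between the groups.

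The 4 libraries held 49904607 and 93265932 event reads in the exon-lacking group and 58487298 and 56164530 in the exon-containing group. Of 14 round spermatid markers 12 were measured, and their summed level was 6873 and 5903 CPM against 7104 and 6459 CPM. Spermatocyte markers (11 of 13 measured) summed to 1437 and 1372 CPM against 1272 and 1356 CPM. Of 10 elongating spermatid markers 4 were measured, at 8796 and 10750 CPM against 14420 and 11280 CPM, and the protamines and transition proteins were not analysed here. Sertoli cell markers (3 of 10 measured) summed to 61.8 and 81.2 CPM against 38.8 and 49.0 CPM, spermatogonial markers (3 of 10) to 16.7 and 10.02 against 14.2 and 11.3 CPM, and Leydig, peritubular and immune markers (2 of 12) to 28.0 and 19.9 against 16.5 and 14.6 CPM. The sums for elongating spermatid, spermatocyte, Sertoli and Leydig, peritubular and immune markers did not overlap between the groups. For spermatocyte markers the nearest libraries of the groups lay close together, at 1372 and 1356 CPM. The part of these sums in the results below was not tested. Much of the elongating spermatid sum came from Akap4 alone, at 4258 and 5139 CPM against 8127 and 5915 CPM. Without Akap4 the elongating spermatid sums overlapped. In sorted bulk cells, fewer cells of a type and less RNA per cell cannot be told apart.

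The first comparison asked which splice choices differed between the groups. The inclusion level is the share of the included form after division of the reads by form length, and the odds of inclusion are the ratio of the included to the skipped form. Few events passed the test: of 48060 tested events in 9315 genes, 63 were called (0.131%; limma on the log2 odds of inclusion, Benjamini-Hochberg adjusted p below 0.05 over all types), in 48 genes (0.515% of genes). Inclusion was higher in the exon-lacking libraries for 21 events and lower for 42, and 61 of the 63 lay outside Larp7. Some called events of a gene share the same skipping reads, as in BC051142, D830044I16Rik and Gm5458, so the 63 are not all separate observations. The groups did not overlap in any of the 63, as in 26.7% of all tested events. An unadjusted p below 0.05 was reached by 2825 events, 1360 higher and 1465 lower. A quasi-binomial model of the same reads called 122 events (0.254%), 62 of the 63 among them. The authors' deposited table gave a false discovery rate below 0.05 for 60 of the 63. It also called many more: 565 of the tested events, 353 lower and 212 higher, had a false discovery rate below 0.05 and a level difference of at least 0.1 in the authors' deposited table.

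The count rests on how the spread between libraries is modelled and on single libraries. With the spread tied to total reads, or with no trend, limma called 0 events. Without either exon-containing library it also called 0, and without the first or the second exon-lacking library it called 6589 or 3756, of which 13 and 5 were among the 63. All 63 kept their direction in each of these settings. This could hardly be otherwise, since the trend does not enter the difference itself and the groups overlapped in none of the 63.

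Cassette exons made up most of the calls, with 46 of 34125 tested (0.135%), 14 higher (0.041%) and 32 lower (0.0938%). The 9 called pairs of mutually exclusive exons were 0.123% of 7330, the 3 called 5′ splice sites 0.179% of 1672, the 2 called 3′ splice sites 0.0754% of 2651 and the 3 called retained introns 0.131% of 2282. Among called cassette exons with a gap of at least 10 percentage points, 10 were lower and 10 were higher. Among the 26 with a smaller gap, 22 were lower. The Larp7 exon that named the groups is in the 46 called, the 32 lower and the 10 lower, where its direction is no finding. The D830044I16Rik exons among the 10 lower share their skipping reads.

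**Figure D1:**
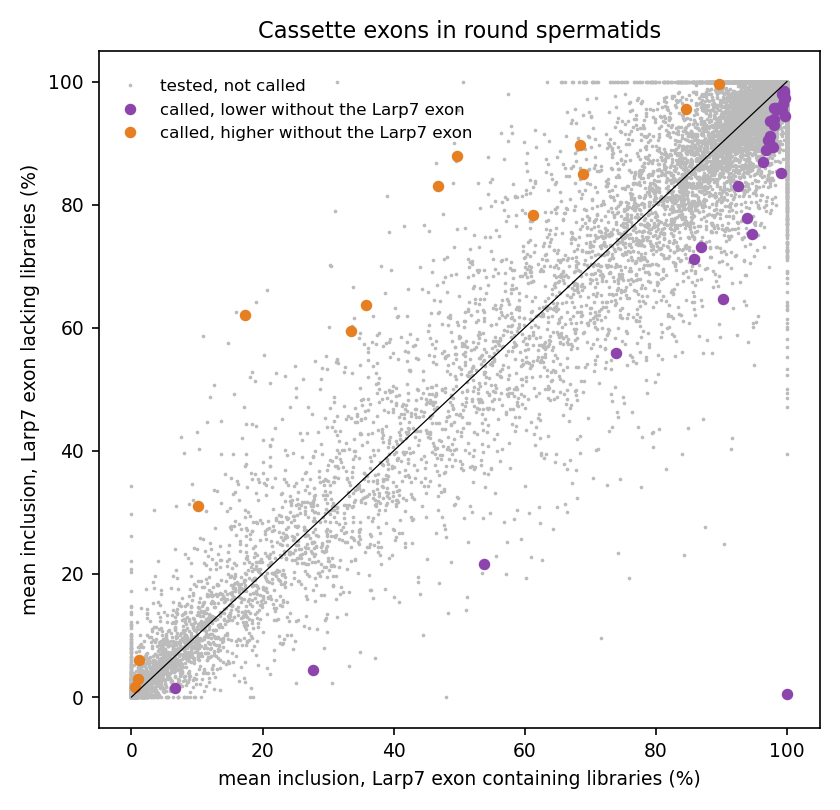
Mean inclusion of each tested cassette exon in the 2 exon-containing libraries (horizontal axis, percent) and the 2 exon-lacking libraries (vertical axis, percent), with the 46 called exons coloured by direction. The called lower exons crowd the upper right corner, the called higher exons lie mostly at lower inclusion, and the Larp7 exon stands alone at the lower right.

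The call of smallest adjusted p with a single gene copy was a 12-nt microexon of Dnm2, whose product dynamin 2 is the GTPase that pinches endocytic vesicles off the membrane. The exon lies on the plus strand of chromosome 9, from 21490658 to 21490669. It was included at 91.2% and 88.2% in the exon-lacking libraries and at 71.4% and 65.6% in the exon-containing libraries. Inclusion rose by 21.2 points, a log2 odds difference of 1.91 ± 0.27 (SE, limma, adjusted p = 6.95e-08), on 936 and 1993 inclusion reads against 918 and 856. Reads of Dnm2 were 185 and 194 CPM against 202 and 189 CPM, so the exon moved while the gene's reads overlapped. Of 27 tested genes of endocytosis and dynamin, Dnm2 alone was called (0.515% of all genes), through 1 of the list's 180 events (0.131% of all events). The only other called exon of at most 27 nt was a 21-nt exon of BC051142, which fell from 96.9% and 97.7% to 88.7% and 92.0%.

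Exons of Sirt3 and Trmt10a also rose. Sirt3 encodes a mitochondrial deacetylase, and its 161-nt exon was included at 35.8% and 26.2% without the Larp7 exon and at 11.2% and 9.17% with it (log2 odds 1.95 ± 0.37, adjusted p = 0.000552). A second called event of Sirt3, a pair of exclusive exons, lost its 162-nt exon, at 76.3% and 83.5% against 90.4% and 94.3%. Trmt10a encodes a tRNA methyltransferase, and its 107-nt exon stood at 62.4% and 56.6% against 36.8% and 30.04% (1.49 ± 0.33, adjusted p = 0.00933). In the rising exons of both genes the gap between the groups was larger than the gap between the libraries of either group. Of 31 tested genes of mitochondria and energy, Sirt3 and Gapdhs, described below, were called (0.515% of all genes). They held 3 called events, of 279 tested in the list (0.131% of all events).

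Other higher exons were thinly covered or split within a group. The 96-nt exon of Ccdc7a, a coiled-coil gene, had a gap of 44.6 points, at 94.3% and 29.6% against 26.7% and 7.99%. The exon-lacking libraries themselves differed more than the groups' nearest libraries did, and all but the first library had at most 13 reads of either form. Ccdc122 stood at 79.7% and 96.2% against 63.5% and 35.9% for a 117-nt exon. Ubox5, a U-box ubiquitin ligase, stood at 54.5% and 73.0% against 21.5% and 50.2% for a 1854-nt part that also lies under Fastkd5, and it was not called by the quasi-binomial model (adjusted p = 0.052). In Ccdc7a and Ubox5 the nearest libraries of the groups lay close together although they did not overlap.

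Ssbp4, a single-stranded DNA-binding protein gene, changed in opposite directions at neighbouring exons. Its 60-nt exon on chromosome 8, from 70599840 to 70599899, was included at 87.5% and 78.5% against 41.6% and 51.9%. Its 54-nt exon, from 70600009 to 70600062, was included at 4.82% and 4.07% against 38.2% and 17.3%. Both were called (limma, adjusted p = 0.0225 and 0.0419), on at most 138 reads of either form per library. Map2, which encodes a microtubule-associated protein, included a 93-nt exon at 95.5% and 95.7% against 83.4% and 85.7%, and the gene 4932412D23Rik a 117-nt exon at 75.6% and 80.9% against 68.1% and 54.4%.

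The losses included an intron of Gsap, the gene of the gamma-secretase activating protein. This 602-nt intron on chromosome 5, from 21270615 to 21271216, was retained at 26.96% and 28.9% in the exon-lacking libraries and at 68.5% and 67.1% in the exon-containing libraries. Retention fell by 39.9 points (log2 odds -2.40 ± 0.41, adjusted p = 3.35e-05), and the libraries of each group differed by less than 2 points. Gsap reads were 14.2 and 12.9 CPM against 29.1 and 26.9 CPM, a difference that did not pass the test (limma, adjusted p = 0.166). The best covered Gsap event is this intron itself, so these values contain the intron reads and are no separate measure of the gene. Reads of the spliced form alone were 50 and 83 against 29 and 28. The other called introns also fell: a 2100-nt intron of Clk3 and a 372-nt intron of Lrrc71, the latter at 3.55% and 1.81% against 7.01% and 6.12%.

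Mdm2, the ubiquitin ligase that holds p53 in check, lost an exon. Its 85-nt exon on chromosome 10, from 117709700 to 117709784, was included at 58.9% and 52.8% against 75.7% and 72.1%. Inclusion fell by 18.03 points (-1.20 ± 0.27, adjusted p = 0.00888) on at least 1028 inclusion reads per library. Fnbp4, a formin-binding protein gene, stood at 21.4% and 21.7% against 61.6% and 46.0% for a 103-nt exon. For 1700029B22Rik a 68-nt exon stood at 59.8% and 69.4% against 89.6% and 90.9%, and for Osbpl1a, an oxysterol-binding protein relative, the first exon of an exclusive pair stood at 48.6% and 61.5% against 83.5% and 87.5%. A 30-nt extension at a 5′ splice site of Fer1l5, a ferlin gene, was used at 86.2% and 82.3% against 94.0% and 96.2%.

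Some calls are uncertain as to their gene. Gm5458, with 4 called events, and Gm10339 belong to predicted genes in near-identical copies on chromosome 14, among which reads can be split. The called exons of D830044I16Rik share their skipping reads and stood at 70.7% and 71.5% against 86.3% and 85.5% for the longer one. They lie under Cdiptos, and the counting was not stated to use strand. In all, 10 of the 63 called parts lay under another RefSeq gene. Among them were those of Calr3 (under Gm46043), Gapdhs (Sbsn), Fer1l5 (Lman2l), Ubp1 (Fbxl2) and Trp53tg5 (Dbndd2 and Sys1).

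**Figure D2:**
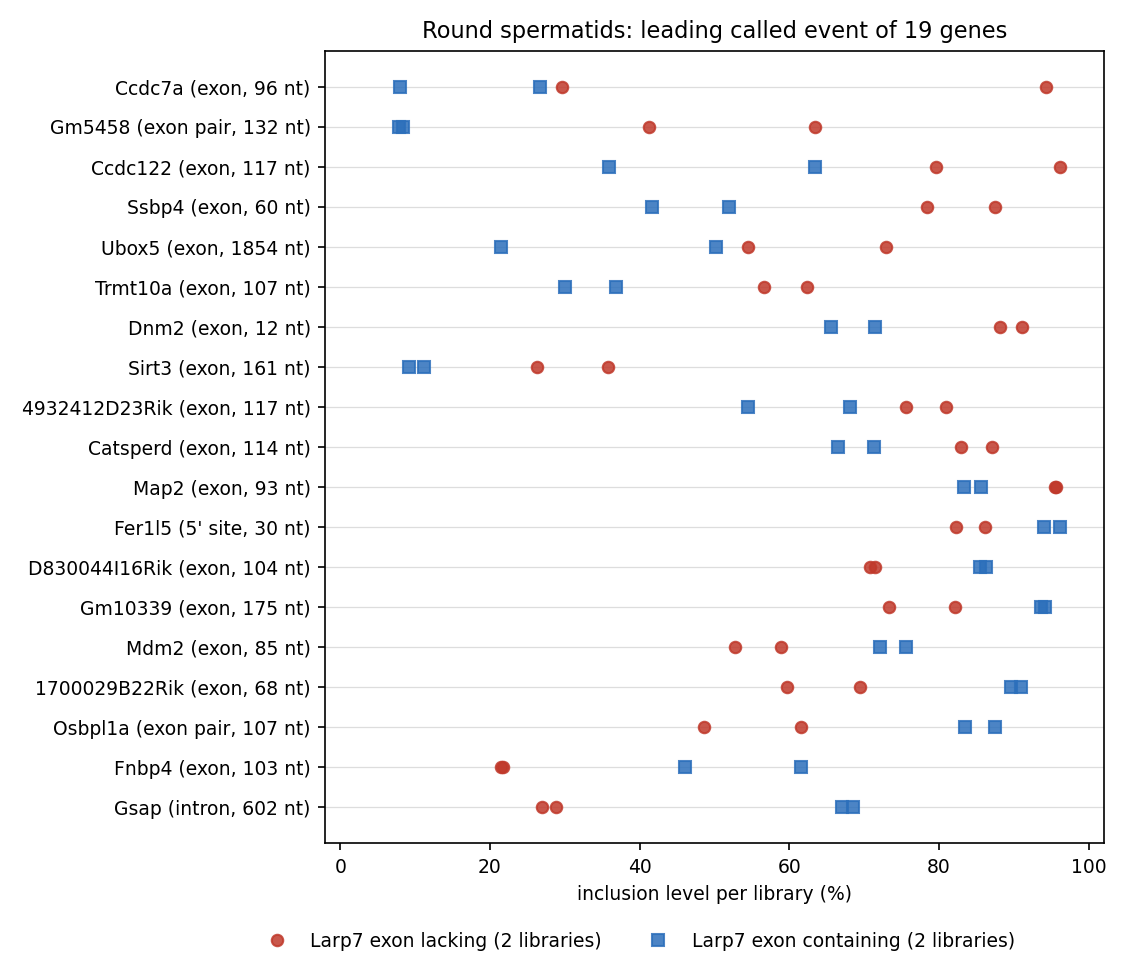
Inclusion level in percent of the leading called event of each of 19 genes, with circles for the 2 exon-lacking and squares for the 2 exon-containing round spermatid libraries. Dnm2, Sirt3, Trmt10a, Gsap and Mdm2 show libraries of a group close together and groups apart, while the circles of Ccdc7a lie at 94.3% and 29.6%.

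Genes of the sperm surface and tail were next examined by list. Of 11 tested genes of the ADAM family and its chaperones, 3 were called and each lost an exon, where 0.515% of all genes were called. These genes held many events, and 3 of their 341 were called, against 0.131% of all events. Adam3, a sperm surface protein needed for passage into the oviduct, included an 82-nt exon at 95.4% and 95.9% against 98.1% and 98.0% (limma, adjusted p = 0.0451). Adam32 included a 62-nt exon at 97.9% and 98.0% against 99.3% and 99.3%. Calr3, the testis chaperone on which Adam3 depends, included a 132-nt exon at 86.0% and 91.7% against 96.4% and 97.4%, a loss of 8.02 points (adjusted p = 0.00779). Over all tested events of the list 56.6% were lower, the same share as over all tested events.

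CatSper is the calcium channel of the sperm tail, and 2 of its 9 tested genes were called, in opposite directions (0.515% of all genes). They held 336 tested events, 2 of them called (0.131% of all events). Catsper1, the pore-forming subunit, lost a 114-nt exon, included at 89.99% and 91.1% against 97.9% and 96.4% (-1.74 ± 0.35, adjusted p = 0.0017). Catsperd, an auxiliary subunit, gained another 114-nt exon, included at 87.0% and 83.0% against 71.3% and 66.5% (1.28 ± 0.28, adjusted p = 0.00888). Both exons are divisible by 3 in length, and in both genes the groups lay further apart than the libraries within them.

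The fibrous sheath is the scaffold around the tail's principal piece. Akap3, one of its anchoring proteins, included a 111-nt exon at 97.6% and 98.5% against 99.5% and 99.7% (adjusted p = 0.00324). A pair of its exclusive exons was also called, with a gap of 0.607 points. This pair had 42 and 46 inclusion reads against 15 and 6, and its false discovery rate in the authors' deposited table was not below 0.05. Gapdhs, the sperm glycolytic enzyme bound to the sheath, used the first exon of an exclusive pair at 96.8% and 98.0% against 99.2% and 99.4% (adjusted p = 0.0371). These were the called genes among 14 tested of the list (0.515% of all genes), with 3 called of 157 events (0.131% of all events). Akap3 reads were 4483 and 4600 CPM against 6661 and 5299 CPM, and Gapdhs reads 716 and 733 CPM against 1077 and 823 CPM. The lower reads of both did not pass the test (limma, adjusted p = 0.454 and 0.517). They went the same way as the elongating spermatid sum given above, to which Gapdhs belongs and of which Akap4 made up much. The part of these markers in the splice differences was not tested.

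The acrosome and egg-binding list gave no call by limma, with 0 of 22 genes, and 1 by the quasi-binomial model. Of its 228 events 23 had an unadjusted p below 0.05. The event of smallest p was a 107-nt exon of Spaca6, a sperm protein of gamete fusion, at 74.7% and 77.6% against 91.9% and 89.9% (limma, adjusted p = 0.0634). The flagellum, axoneme and cilium list gave 0 calls among 64 genes by either test, with 42 of 912 events at an unadjusted p below 0.05. Their leading event was a 112-nt exon of Cfap46 at 11.0% and 13.8% against 2.58% and 2.98% (limma, adjusted p = 0.226). Haploid gene regulators (0 of 16 by both tests, 10 of 214 events unadjusted) were led by an exon of Crem at 55.7% and 64.4% against 77.9% and 85.4% (adjusted p = 0.549).

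Genes of the machinery that Larp7 acts on were examined next, beside 2825 of 48060 events at an unadjusted p below 0.05 over all genes. Of 10 tested genes of the 7SK and P-TEFb group, the called one was Larp7 itself, through the exon that named the groups, and 9 of the group's 53 events, those of Larp7 included, had an unadjusted p below 0.05. None of 17 genes that bind or modify U6, of 26 genes of the U1, U2 and tri-snRNP particles or of 31 hnRNP and exon choice regulators was called by limma or the quasi-binomial model, with 4 of 59, 5 of 152 and 13 of 192 events at an unadjusted p below 0.05. Of 18 SR proteins and their kinases 1 was called (0.515% of all genes), through 1 of 130 events (0.131% of all events). Of the 130 events 19 had an unadjusted p below 0.05, 10 of them lower. Clk3, a kinase of SR proteins, retained its 2100-nt intron on chromosome 9, from 57758724 to 57760823, at 8.43% and 7.66% against 16.8% and 15.1% (-1.14 ± 0.25, adjusted p = 0.00779). Clk3 reads overlapped, at 194 and 296 CPM against 295 and 261 CPM.

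The lists for RNA decay, chromatin, small RNA and meiosis had no called gene by either test. Nonsense-mediated decay had 0 of 20 genes and 6 of 107 events at an unadjusted p below 0.05, histone and DNA modifiers 0 of 47 and 10 of 284, the piRNA pathway 0 of 21 and 13 of 229, and meiotic axis and recombination genes 0 of 28 and 11 of 218. The event of smallest p among the modifiers was a 116-nt exon of Ehmt2, a histone H3 methyltransferase gene, at 28.2% and 32.6% against 43.7% and 49.9% (limma, adjusted p = 0.122). The others were a Upf2 exon at 7.25% and 6.73% against 2.97% and 4.10%, a Stag3 exon at 89.97% and 87.7% against 93.4% and 92.4%, and the first exon of a Ddx4 pair at 98.8% and 99.2% against 99.7% and 99.7%, each with an adjusted p of 0.641.

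Most other called exons moved by less than 10 points. Gid4, the substrate receptor of a ubiquitin ligase, gained a 60-nt exon, at 99.6% and 99.5% against 84.3% and 95.0%. BC051142 was called at 5 events, all lower, and a 30-nt exon of it was skipped in 67 and 271 reads against 21 and 20 (96.4% and 94.2% included against 99.2% and 99.2%; limma, adjusted p = 1.11e-05). Its 51-nt exon stood at 80.7% and 69.9% against 94.55% and 94.7%, on the same skipping reads, and is no separate observation. Nbr1, an autophagy receptor, included a 111-nt exon at 95.9% and 96.8% against 99.3% and 99.5%. Atp8b3, a lipid flippase of the acrosome outside the acrosome list above, included a 114-nt exon at 98.6% and 98.4% against 99.5% and 99.6%. Mroh2b, 1700012B07Rik, Tepp, Sh3d21, Trp53tg5, Tex36, Syngr4, Vwa3b, Ms4a14 and Ubp1 each had a called exon that was lower by less than 10 points. Tex36 was the called gene among 12 tested round spermatid markers (0.515% of all genes), through 1 of their 154 events (0.131% of all events).

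A further set of small calls concerned forms that are rare in both groups. Most of these rose: a 94-nt exon of Trim27, a RING finger gene, at 1.799% and 1.59% against 0.483% and 0.5998%, and an 86-nt exon of Sgf29, a subunit of the SAGA complex, at 3.03% and 2.69% against 1.05% and 1.004%. A 645-nt extension at a 5′ splice site of Poli, a translesion DNA polymerase, was used at 8.18% and 2.73% against 0.997% and 1.16%, and a 1-nt shift at a 3′ splice site of Art3 at 7.70% and 6.45% against 2.78% and 1.51%. A 343-nt exon of Rpgrip1, a ciliary protein gene outside the cilium list above, fell, at 1.69% and 1.35% against 7.65% and 5.57%. The groups lay apart in each of these events.

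Over all tested exons with a mean inclusion of at least 90%, skipping was higher in the exon-lacking libraries. The mean share of the skipped form over 27314 such exons, Larp7 left out, was 1.45% and 1.46% in the exon-lacking libraries and 1.12% and 1.12% in the exon-containing libraries. With length-normalised reads pooled over the exons, the shares were 0.562% and 0.528% against 0.443% and 0.449%. Without the called events they were 0.553% and 0.519% against 0.440% and 0.446%, and over the 9301 exons with at least 1000 reads per library 0.447% and 0.423% against 0.360% and 0.363%. An exon entered only with at least 1 skipping read over the 4 libraries, which is met more easily through the group with more reads, here the exon-lacking one. The exon-lacking libraries were the shallowest and the deepest of the 4. The part of depth and of this filter in the shares was not tested. Since 2 against 2 libraries cannot go below p = 0.333 in an exact permutation test, these shares carry no test.

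Of 1878 of these exons with at least 10 reads of the rarer form, 1266 (67.4%) had lower inclusion in the exon-lacking libraries, against 58.5% of all tested cassette exons. The median log2 odds was -0.26 in this set and -0.33 over all tested cassette exons. A minimum of reads of the rarer form is passed more easily by exons skipped more in the group with more reads, so these counts are a description. Exons with a length divisible by 3 were skipped at 0.581% and 0.551% against 0.466% and 0.468%, and the other exons at 0.548% and 0.510% against 0.427% and 0.435%. Mean inclusion over all tested cassette exons was 87.5% and 87.5% against 88.0% and 87.8%, and mean intron retention 27.24% and 26.91% against 27.61% and 27.28%.

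**Figure D3:**
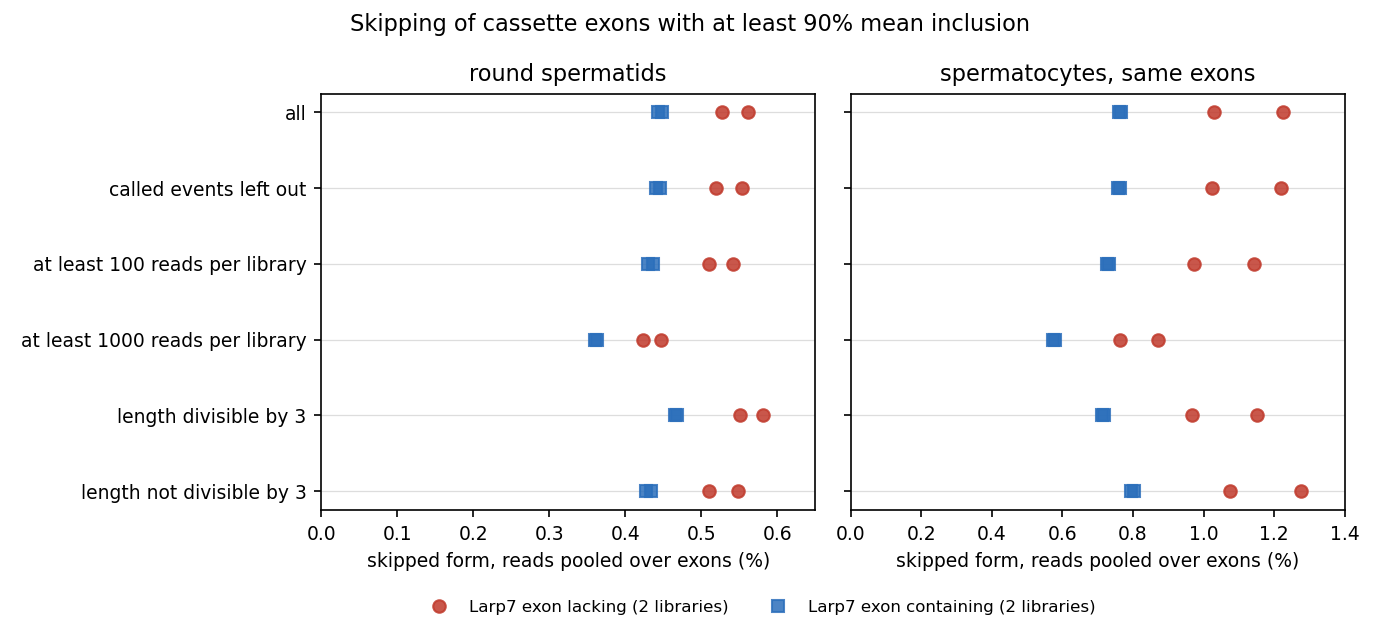
Share of the skipped form in percent, from length-normalised reads pooled over cassette exons with at least 90% mean inclusion in round spermatids, per library (circles exon-lacking, squares exon-containing), for all such exons and for subsets, with the same exons in spermatocytes on the right. In every set shown the 2 circles lie to the right of the 2 squares, at 0.562% and 0.528% against 0.443% and 0.449% for all exons in round spermatids.

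The called cassette exons differed from the tested ones in frame and starting level by description. The 46 called exons include the Larp7 exon that named the groups, and some of them share skipping reads. Of these 46, 26 (56.5%) had a length divisible by 3, against 40.3% of those tested. The share was 10 of 14 among the higher and 16 of 32 among the lower exons. Mean inclusion was at least 90% in 21 of the 32 lower and in 2 of the 14 higher exons, against 80.1% of all tested. Called exons had a median length of 105.5 nt against 117 nt. Called events had a median of 54.3 reads of the rarer form per library against 2 for tested events.

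Spermatocytes from the same study served to ask whether the round spermatid differences were particular to that stage. Of 32423 events tested in both, limma called 0 for a difference between stages (0%), and 2666 had an unadjusted p below 0.05. Among the called round spermatid events 53 could be tested, and 48 had the same direction in spermatocytes, where 57.6% of all events did. In 42 of the 53 the spermatocyte groups also did not overlap, in the same direction as in round spermatids. The share over all spermatocyte events was not computed. In round spermatids the groups did not overlap, in either direction, in 26.7% of all tested events. The Larp7 exon that named the groups is in all of these counts, where its agreement is no finding. Some of the other events share skipping reads, and most events behind the 57.6% had few reads of the rarer form, so the counts are a description. The Dnm2 microexon stood at 84.5% and 87.1% against 71.3% and 69.4% in spermatocytes, and the stage difference was 0.50 ± 0.33 on the log2 odds scale (adjusted p = 0.708). The Clk3 intron stood at 11.5% and 11.8% against 20.8% and 18%, and Catsperd at 89.8% and 92.1% against 80.1% and 79.6%.

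A few round spermatid calls had small gaps in spermatocytes. Ubox5 stood at 27.8% and 29.4% against 26.4% and 28.0% there, with a stage difference of 2.01 ± 0.65. Sirt3 stood at 23.6% and 28.3% against 19.7% and 16.4%, with a stage difference of 1.26 ± 0.44, and Mdm2 at 52.2% and 46.4% against 58.2% and 55.1%, with one of -0.74 ± 0.32. None of these passed the test of the difference (limma, adjusted p = 0.589 for each). The 225-nt exon of Tepp was opposite in sign, at 100% and 97.8% against 93.9% and 92.4% in spermatocytes and at 84.5% and 94.2% against 97.0% and 98.8% in round spermatids, also without passing (adjusted p = 0.589). Pooled skipping of nearly always included exons was higher in the exon-lacking libraries of spermatocytes too, at 1.23% and 1.03% against 0.767% and 0.760% over 17600 of the same exons.

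**Figure D4:**
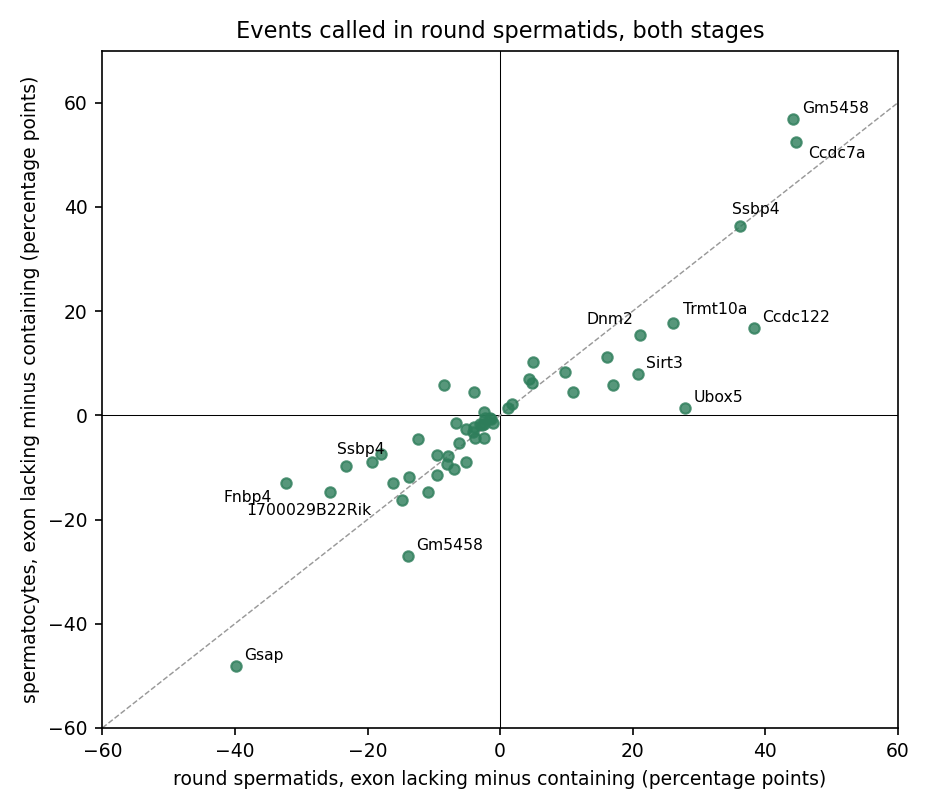
Difference in inclusion, exon-lacking minus exon-containing, in percentage points in round spermatids (horizontal axis) and spermatocytes (vertical axis) for the events called in round spermatids and present in both tables, Larp7 left out, with the dashed line at equal values. Most points lie in the quadrants of equal sign, the 60-nt exon of Ssbp4 lies on the line, and Ubox5 lies near 0 on the spermatocyte axis.

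Reads per gene were compared as a rough measure of abundance, taken from whichever event of a gene had most reads. Of 9315 genes 8 were called (0.0859%), and 1026 had an unadjusted p below 0.05. Larp7 was lower, and the other 7 were higher in the exon-lacking libraries. Nmnat3, which encodes a mitochondrial enzyme of NAD synthesis, stood at 138 and 123 CPM against 28.4 and 15.2 CPM, a difference of 2.65 ± 0.29 on the log2 scale (limma, adjusted p = 0.000502). Fxyd2, a regulatory subunit of the sodium pump, stood at 52.1 and 65.8 CPM against 9.30 and 14.4 CPM (2.34 ± 0.29, adjusted p = 0.00169).

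The remaining called genes were low or copied. Churc1 stood at 41.6 and 20.6 CPM against 7.63 and 7.65 CPM, and 1700049E15Rik at 4.97 and 4.02 CPM against 0.0838 and 0.425 CPM, on 1 and 5 reads in the exon-containing libraries. Gm10338, Gm21149 and Gm3115 are predicted genes whose reads may be shared with near-identical copies. With median-ratio scaling, Churc1, Gm10338 and 1700049E15Rik were no longer called (adjusted p = 0.159, 0.0689 and 0.159). Leaving out 1 library moved the count of 8 to between 15 and 1063.

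**Figure D5:**
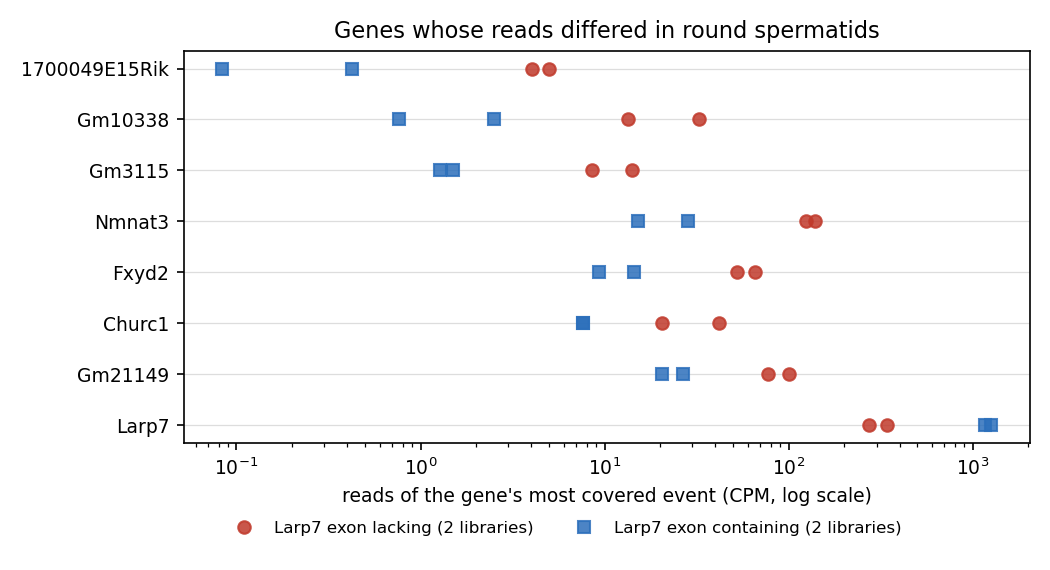
Reads of called genes, each from its best covered event, in CPM on a log axis, per round spermatid library (circles exon-lacking, squares exon-containing). Larp7 alone lies lower in the exon-lacking libraries, and Nmnat3 stands at 138 and 123 CPM against 28.4 and 15.2 CPM.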

How the data were processed

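Polyadenylated RNA was sequenced, per the labels. The submitters' processing notes list STAR and mm10 without a version. Deposited tables hold, per the file headers, inclusion and skipping junction counts of both libraries of a group in 1 cell, form lengths, inclusion levels, and the authors' p-values and false discovery rates. The deposited level differences (a score) and p-values were used only for the counts attributed to the authors' table.

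Inclusion was recomputed from reads and form lengths, and differed from the deposited levels by at most 0.0005. Events needed on average 10 reads per library and 1 read of each form. R 4.3.3 and limma 3.58.1 were used on log2 odds (0.5 reads added per form), weighted by counting variance, with the spread trended on reads of the rarer form. Benjamini-Hochberg adjustment ran over all 5 types. The scripts were tested on simulated data. In exclusive pairs, inclusion refers to the first exon of the transcript. Gene reads were the most covered event per gene, at least 10 reads on average, on the log2 CPM scale.

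Named genes were those whose event of smallest p was called with at least 10 points and groups apart. Also named were called exons of at most 27 nt, called list members and genes called for reads. Lists without a call gave their member of smallest p. Other called genes are named for small differences in either direction. Members, lists and the fit were chosen with earlier results of these data known. Overlaps used RefSeq genes of GRCm38. A called event that enters the counts is not reported by name here.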

Additional observations from a re-analysis of the deposited data

How the results depend on the processing

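The number of called round spermatid events changed with the processing. The direction of all 63 stayed the same under every alternative in which they were tested. The alternatives refit the same round spermatid reads, and the groups overlapped in none of the 63, so an unchanged direction is no support. With the spread tied to total reads, and with no trend, limma called 0 events of any type. Without weights it called 28 events (18 cassette exons, 1 intron, 0 alternative 5′ sites), with at least 5 reads of the rarer form 34 (27 cassette exons, 3 exclusive pairs, 0 alternative 3′ sites), and with no filter on reads 1 alternative 3′ site. The 0.5 reads added without scaling gave 5 introns. The quasi-binomial model called 122 events (91 cassette exons, 6 introns, 18 exclusive pairs, 4 alternative 3′ sites). All 8 libraries in 1 fit gave 146 (114 cassette exons, 10 introns, 11 alternative 5′ sites), with 52 of the 53 shared events called again. Leaving out 1 library at a time leaves a group with a lone library that is assumed to vary like the others, and the counts ran from 0 to 6589 for all events, 0 to 6103 for cassette exons, 0 to 65 for introns, 0 to 133 for exclusive pairs, 0 to 172 for 3′ sites and 0 to 116 for 5′ sites. Genes called for reads were 5 with median-ratio scaling and 15 to 1063 with 1 library left out. The cause of these moves was not tested. The count of stage differences was 0 in each setting run. No paired analysis was possible because the table columns carry no replicate numbers. Depth limits the test to events with reads of both forms, and intervals were not computed for single libraries.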

Other observations

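In Ccdc7a and Gid4, among other events, the libraries of a group lay apart in the same order in both stages. The Ccdc7a exon stood at 94.3% and 29.6% in the exon-lacking round spermatid libraries and at 93.6% and 36.3% in the exon-lacking spermatocyte libraries. The Gid4 exon stood at 84.3% and 95.0% in the exon-containing round spermatid libraries and at 83.9% and 97.9% in the exon-containing spermatocyte libraries. These events were chosen after their values were seen, and the labels do not say whether the libraries of the 2 stages came from the same animals.

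Markers of spermatogonia stood differently in the spermatocyte libraries than in round spermatids, with summed levels over 8 measured markers of 493 and 185 CPM in the exon-lacking and 69.4 and 66.5 CPM in the exon-containing group. In round spermatids 3 of these markers were measured, at 16.7 and 10.02 CPM against 14.2 and 11.3 CPM, so the groups overlapped. The part of this difference in the stage comparison was not tested.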
